A study of Schizosaccharomyces pombe with 4 samples.

Results

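The comparison described here sets fission yeast cells (Schizosaccharomyces pombe) that lack the gene sfp1 against wild-type cells. Its members are the 4284 genes, of 5129 gene models in the deposited table, with a length of 300 bp or more whose FPKM averaged 10 or more across the genotypes, without sfp1 itself. FPKM is a level of transcript, in sequenced fragments, corrected for gene length and library size. The mean across genotypes includes the sfp1 knockout, so a gene low elsewhere could enter through a high value there, as sut1, nrg1 and others did. Of the models left out, 231 were shorter than 300 bp and 613 were longer but had a mean under 10 FPKM, 194 of these being listed at 0 in every genotype. The sfp1 knockout, the ifh1 knockout, the fhl1 knockout and the wild type (WT) each gave 1 sample of total RNA from untreated cells in exponential growth, and other alleles of these strains are not given in the labels. The study's title names a regulatory line that runs through TORC1, the growth-promoting TOR kinase complex, and Sfp1, and the comparison asks which transcript levels differ when sfp1 is absent.

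Sfp1 is a zinc finger transcription factor. In budding yeast it promotes transcription of genes for ribosomal proteins and for ribosome assembly while nutrients are plentiful and TORC1 is active, and it leaves these promoters when TORC1 is inhibited. Fhl1, a fork-head protein, and Ifh1, its coregulator, act at ribosomal protein promoters in the same organism. Making a ribosome takes ribosomal RNA from RNA polymerase I, ribosomal proteins, small nucleolar ribonucleoproteins (snoRNPs) that modify the RNA, and a large set of assembly factors that fold, cut and export the precursors.

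The sfp1 gene was listed at 0.0818 FPKM in its own knockout, against 261.0 FPKM in WT. The fhl1 gene stood at 50.7 FPKM in the sfp1 knockout and 53.8 FPKM in WT, and ifh1 at 105.3 FPKM in the sfp1 knockout and 127.5 FPKM in WT. With 1 column per genotype, no test and no error between cultures could be given, and the words higher and lower describe these 2 columns. Differences are log2(FPKM + 1) in the sfp1 knockout minus WT, a scale on which a fold change of low genes is understated. Each value in the authors' table comes with bounds below and above it, with a median half-width of 35.5% of their midpoint in the sfp1 knockout and 35.7% in WT. Bounds are called apart where the lower bound of one genotype lay above the upper bound of the other. In 656 members the sfp1 knockout value, and in 698 the WT value, lay outside its own bounds. Sequencing depth is unknown, and the table's name speaks of 2 replicates without saying how they were combined.

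At least 2-fold higher in the sfp1 knockout were 64 genes, or 1.49% of the members, and 90 genes, or 2.1%, were at least 2-fold lower. Bounds were apart for 40 of the 64 and 62 of the 90. Counted over all members, bounds were apart and higher in 1.05% and apart and lower in 1.52%. The distribution was centred near 0, with a median of −0.02, quartiles of −0.28 and 0.21, and the central 90% between −0.76 and 0.64. Within 1.2-fold of WT lay 2252 members (52.6%). Over all members 52.4% lay below 0 and 47.6% above 0, the shares to set beside the counts in each list below. A further 323 genes were between 1.5-fold and 2-fold lower and 207 between 1.5-fold and 2-fold higher, so the lower side held more genes in both bands. Of the 90 lower genes, the sfp1 knockout had the lowest of the 4 genotypes' values in 83, and of the 64 higher genes it had the highest in 55. Over all members it was lowest in 31.7% and highest in 29.4%, but the 90 and the 64 genes were chosen by the sfp1 knockout value itself. An extreme place among the 4 is favoured by that choice, so these counts do not show a difference particular to this knockout. The gene lists used here held 36 of the 90 lower genes and 13 of the 64 higher genes, against 22.4% of all members. In bulk RNA, fewer cells of a type and less RNA per cell cannot be told apart.

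**Figure D1:**
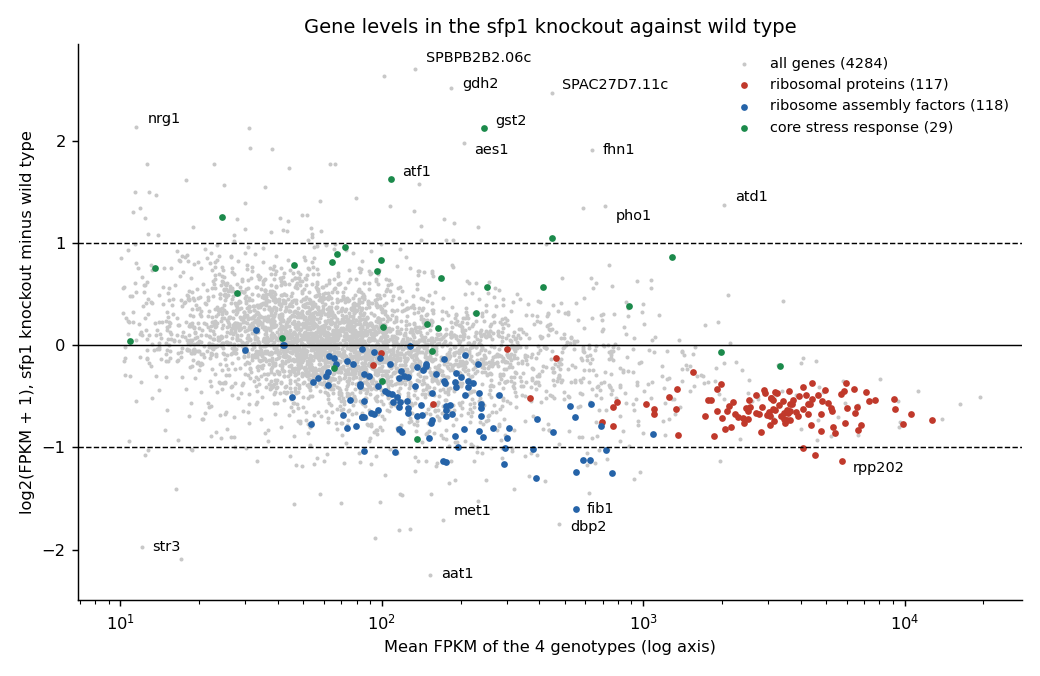
Mean FPKM of the 4 genotypes (log axis) against the log2(FPKM + 1) difference, sfp1 knockout minus wild type, for each of 4284 genes, with the 2-fold limits dashed. Ribosomal protein genes form a compact band at high level below 0, ribosome assembly factors are spread below 0 at middle level, and core stress genes are mostly above 0.

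Promoters of the main gene groups carried different short motifs. The window searched was 250 bases before to 50 bases after the annotated gene start in the RefSeq annotation of ASM294v3, for the 4283 members found there, and both strands were read. The HomolD core (CAGTCAC), part of a box known from fission yeast ribosomal protein promoters, was in 105 of 117 ribosomal protein promoters (89.7%) and in 211 of all 4283 (4.93%). The HomolE core (CCCTACC), a partner of HomolD, was in 43 of the 117 and in 2.40% of all. Among 118 assembly factor promoters, 3 held the HomolD core and none the HomolE core. They held the RRPE core (AAAATTT), the centre of an element named for rRNA processing genes in budding yeast, in 61 of 118 cases (51.7%), against 30.4% of all promoters and 22.2% of ribosomal protein promoters. The RRPE core was in 53 of the 90 genes at least 2-fold lower (58.9%), 16 of the 64 at least 2-fold higher (25.0%) and 16 of the 26 nucleotide synthesis genes (61.5%). The RRPE core is made of A and T only, and the median GC content of the windows was 32.7% for lower genes, 34.3% for higher genes and 33.0% for all. It was 31.8% for assembly factors and 35.7% for ribosomal protein genes. The part of base composition in the RRPE shares was not tested. A motif match is a description of letters and not evidence of binding.

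**Figure D2:**
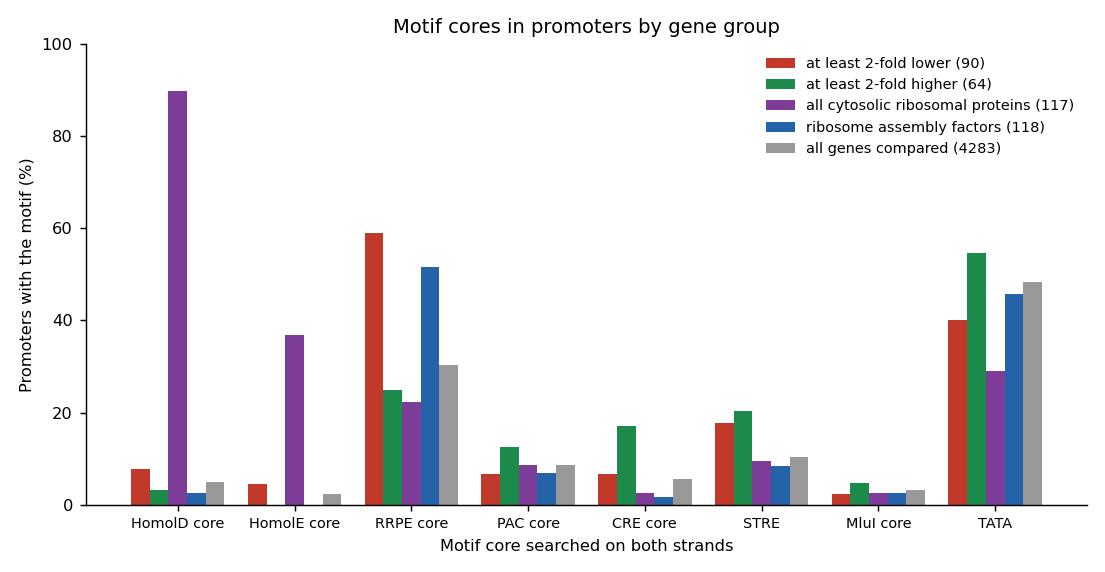
Share of promoters (%) that hold each of 8 motif cores on either strand, for the 90 lower and the 64 higher genes, ribosomal protein genes, assembly factor genes and all genes with a promoter. HomolD and HomolE mark the ribosomal protein genes, and the RRPE core is most frequent in the lower genes and the assembly factors.

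Ribosomal protein genes were lower as a narrow band. All 117 measured members lay below 0, against 52.4% of all members, with a median of −0.62 and quartiles of −0.70 and −0.53. The median gene stood at 3099.8 FPKM in the sfp1 knockout and 4797 FPKM in WT. Only 3 of 117 were at least 2-fold lower, a share near the 2.1% over all members, and no pair of bounds was apart. For rpl31, rpl35, rps20, rps1401 and rps1402, as for rpp202 and rpl2701 below, both values lay above their own upper bounds. In the sfp1 knockout rpl31 stood at 10962 FPKM with an upper bound of 5115. The values of rpl1002, rpl13, rps2 and rps403 lay inside theirs. Where values lie outside their bounds, overlap of the bounds does not limit the difference. Of the 136 ribosomal protein genes in the table, the other 19 were under 300 bp and outside the comparison. The 71 large-subunit genes (median −0.61) and the 46 small-subunit genes (median −0.64) had close medians. In 108 of the 117 genes the ifh1 knockout had the lowest value of the 4 genotypes, and in 7 the sfp1 knockout did. Over all members, each of these knockouts was lowest in 31.7%. Scaling moved these values: after quantile normalization the median relative to all members was −0.15 instead of −0.60, while scaling each genotype to its FPKM sum outside ribosomal protein genes left it at −0.60, raised the median of all members to 0.23 and gave 133 genes at least 2-fold higher and 29 lower in place of 64 and 90. The 3 knockouts share the single WT column, and their medians against it were −0.62 in sfp1 knockout cells, −0.99 in ifh1 knockout cells and −0.61 in fhl1 knockout cells.

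Among the 3 genes past the limit, rpp202 (SPBC23G7.15c), which encodes an acidic P2 protein of the ribosomal stalk, stood at 2772 FPKM in sfp1 knockout cells, 4522 in ifh1 knockout cells, 9679 in fhl1 knockout cells and 6093 in WT. For rpl2701 (SPBC685.07c), a large-subunit gene, the values were 3754.5 FPKM in sfp1 knockout cells, 2951 in ifh1 knockout cells, 3534 in fhl1 knockout cells and 7931 in WT. The small-subunit gene rps2 (SPCC576.08c) stood at 2991 FPKM in sfp1 knockout cells, 3295 in ifh1 knockout cells, 4049 in fhl1 knockout cells and 6001 in WT. The sfp1 knockout was thus the lowest genotype for rpp202 and rps2 but not for rpl2701. For rpp202 and rpl2701 the values in the sfp1 knockout and WT lay above their own upper bounds. These bounds were 1147 FPKM in the sfp1 knockout and 2429 in WT for rpp202, and 2419 and 5134 for rpl2701. The rps2 values lay inside theirs. Most fission yeast ribosomal proteins are encoded by more than 1 gene. Copies of a protein were close to each other: over 48 families with at least 2 measured copies, the median gap between the most and the least changed copy was 0.12, and 41 families were under 0.3. The widest gap was in rpl30, where rpl3001 stood at 7812 FPKM in the sfp1 knockout and 12071 in WT (−0.63), and the minor copy rpl3002 at 403.2 FPKM in the sfp1 knockout and 414.8 in WT (−0.04). The next were the rpp2, rpl1 and rpl27 families. How reads were shared between near-identical copies is not stated, so single copies are uncertain.

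The 4 windows printed here show the HomolD core in genes at least 2-fold lower, 2 of them ribosomal protein genes (rpl2701 and rps2) and 2 not: byr3, which encodes a CCHC zinc finger protein annotated as a translational activator, and tif5, an initiation factor. Each is read 5′ to 3′ on the strand of its gene, with the cores of HomolD and HomolE in capitals. The rpl2701 window is chrII:2780681-2780740, the rps2 window chrIII:2096049-2096108, the byr3 window chrI:2248577-2248636 and the tif5 window chrI:541623-541682, all on the minus strand of ASM294v3.
rpl2701: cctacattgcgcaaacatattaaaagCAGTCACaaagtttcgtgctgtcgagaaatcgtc
rps2: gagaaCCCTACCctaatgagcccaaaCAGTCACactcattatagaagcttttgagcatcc
byr3: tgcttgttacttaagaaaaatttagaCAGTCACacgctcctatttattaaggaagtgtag
tif5: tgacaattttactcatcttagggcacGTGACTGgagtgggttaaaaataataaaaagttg
In these windows the HomolD core began 50, 46, 47 and 58 bases before the gene start in rpl2701, rps2, byr3 and tif5, and in tif5 it lay on the opposite strand. The byr3 gene stood at 622.0 FPKM in sfp1 knockout cells, 745.3 in ifh1 knockout cells, 775.9 in fhl1 knockout cells and 1539.6 in WT, all 3 knockouts being below WT. Outside the ribosomal protein genes, 106 members had a HomolD core, with a median of −0.28, against −0.00 for the 4060 without.

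**Figure D3:**
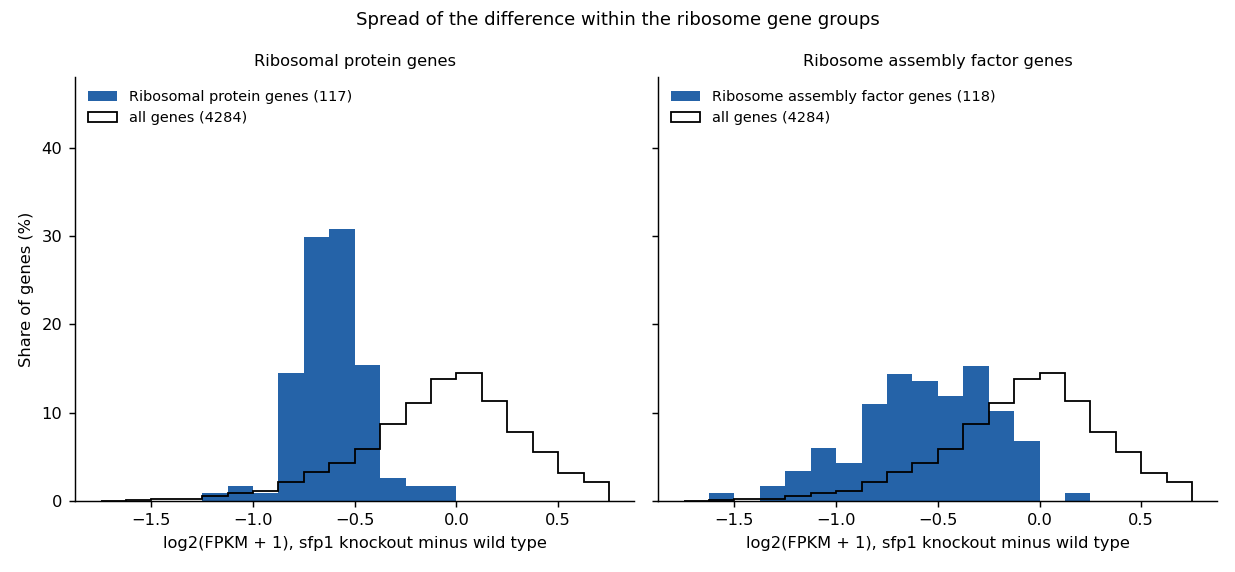
Share of genes (%) by log2(FPKM + 1) difference, sfp1 knockout minus wild type, for 117 ribosomal protein genes (left) and 118 ribosome assembly factor genes (right) as filled bars, with all 4284 genes as an outline, shown only within the plotted range. Ribosomal protein genes pile up close to their median of −0.62, while assembly factors range from −1.61 to 0.15.

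Assembly factors were lower to a like median but over a wider range. Of 118 measured genes in 3 lists, 117 were below 0 and 14 were at least 2-fold lower, against 2.1% of all members, 12 of them with bounds apart, against 1.52%, with a median of −0.55 and quartiles of −0.79 and −0.31. The sfp1 knockout held the lowest of the 4 values in 115 of these 118 genes, or 97.5%, and the ifh1 knockout in none. Over all members, each of these knockouts held it in 31.7%. Against the shared WT column, the median of the same genes was 0.12 in ifh1 knockout cells and −0.11 in fhl1 knockout cells. In summed FPKM, assembly factors made up 1.37% of all members' FPKM in sfp1 knockout cells, 2.61% in ifh1 knockout cells, 1.94% in fhl1 knockout cells and 1.71% in WT. Their summed FPKM was 16024 in sfp1 knockout cells, 27290 in ifh1 knockout cells, 23448 in fhl1 knockout cells and 26135 in WT. The fhl1 knockout was thus below WT in sum though above it in share. The FPKM summed over all members also differed, from 1.04e+06 in ifh1 knockout cells to 1.53e+06 in WT, and the shares move with that total. Ribosomal proteins made up 33.0% in sfp1 knockout cells, 29.1% in ifh1 knockout cells, 33.5% in fhl1 knockout cells and 39.1% in WT, so that the order of the genotypes differed between the 2 groups. With gene models under 300 bp included, the ribosomal protein share was 67.9% in sfp1 knockout cells, 69.9% in ifh1 knockout cells, 66.7% in fhl1 knockout cells and 68.4% in WT, close together and without that order.

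The snoRNP list had a median of −0.69 over 14 genes. Fibrillarin (fib1, SPBC2D10.10c, chromosome II 2982764 to 2983681), the box C/D methyltransferase, stood at 264.7 FPKM in sfp1 knockout cells, 644.7 in ifh1 knockout cells, 490.3 in fhl1 knockout cells and 808.0 in WT. The nucleolin gene gar2 (SPAC140.02) stood at 388.9 FPKM in sfp1 knockout cells, 958.1 in ifh1 knockout cells, 763.9 in fhl1 knockout cells and 927.9 in WT. Both had their lowest value in the sfp1 knockout, with bounds apart from WT. The box C/D core proteins had a median of −0.94 over 4 genes, with snu13 at −0.87 and nop58 at −0.60. The 3 measured box H/ACA core proteins, part of the snoRNPs that carry out pseudouridylation, had a median of −1.12. Of these, gar1 stood at 354.4 FPKM in the sfp1 knockout and 772.3 in WT, and nhp2 at 321.0 FPKM in the sfp1 knockout and 699.0 in WT. The exception above 0 was hit1 (33.4 FPKM in the sfp1 knockout and 30.1 in WT), whose budding yeast namesake acts in snoRNP formation.

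All 55 factors of 60S assembly and export were below 0, against 52.4% of all members, with a median of −0.63. At least 2-fold lower were 8 of them, against 2.1% of all members. The gene of the pre-60S protein Rlp24, rlp24 (SPAC22E12.13c), stood at 209.2 FPKM in sfp1 knockout cells, 446.4 in ifh1 knockout cells, 379.6 in fhl1 knockout cells and 515.6 in WT. For tif6, which keeps the new 60S subunit from joining the small one too early, the values were 282.1 FPKM in sfp1 knockout cells, 703.6 in ifh1 knockout cells, 562.2 in fhl1 knockout cells and 667.9 in WT. The helicase gene dbp3 (−1.16), mak16 (−1.15) and the pescadillo gene ppp1 (−1.01) were also at least 2-fold lower, while las1 (−0.04) and nop52 (−0.01) stood at the WT level. All 49 factors of the small-subunit processome and 40S assembly were below 0 as well, with a median of −0.47. In that list imp4, a partner of the U3 snoRNP, alone passed the 2-fold limit (102.0 FPKM in the sfp1 knockout and 224.7 in WT). The rRNA processing gene utp23 (69.7 FPKM in the sfp1 knockout and 165.3 in WT) and the ribosome biogenesis gene llp1 (202.6 FPKM in the sfp1 knockout and 493.8 in WT), both outside the lists, were at least 2-fold lower too, with bounds apart from WT for utp23 and overlapping for llp1. The RNA helicase gene dbp2 (SPBP8B7.16c), on none of these lists, stood at 199.1 FPKM in sfp1 knockout cells, 582.2 in ifh1 knockout cells, 450.0 in fhl1 knockout cells and 672.4 in WT. Over 33 members annotated as RNA helicases, the median was −0.40 and 3 were at least 2-fold lower (9.09%, against 2.1% of all members).

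Of the assembly lists, the 3 genes furthest below WT show the RRPE core, in capitals on either strand, with overlapping cores run together. They are fib1 at chrII:2983711-2983770 (minus strand), rlp24 at chrI:5044889-5044948 (minus) and gar2 at chrI:1897392-1897451 (plus), in ASM294v3.
fib1: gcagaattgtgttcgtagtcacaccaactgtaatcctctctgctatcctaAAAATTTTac
rlp24: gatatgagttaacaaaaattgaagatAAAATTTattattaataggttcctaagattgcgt
gar2: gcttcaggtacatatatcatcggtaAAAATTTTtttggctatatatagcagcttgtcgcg
The fib1 and gar2 windows held 2 overlapping cores each and the rlp24 window 1, which lay 200 bases before the gene start. Among assembly factors, the 61 with a core had a median of −0.64 and the 57 without one a median of −0.45. Over all members, 4.07% of genes with a core were at least 2-fold lower, against 1.24% of genes without.

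RNA polymerase I genes were uneven. The 7 core subunits had a median of −0.66, and 6 were below 0, all but rpa43 (0.08). The largest subunit gene nuc1 stood at 154.8 FPKM in sfp1 knockout cells, 349.8 in ifh1 knockout cells, 311.8 in fhl1 knockout cells and 333.6 in WT, with bounds apart from WT. The 7 initiation and termination factors had a median of 0.05, with rrn5 at 41.3 FPKM in the sfp1 knockout and 36.6 in WT. Of these 7, 4 were above 0, but spp27, a subunit of the upstream activation factor, and rrn3, which makes the polymerase competent to initiate, were as low as the subunits. The spp27 gene stood at 227.1 FPKM in the sfp1 knockout and 375.7 in WT, and rrn3 at 56.4 FPKM in sfp1 knockout cells, 105.8 in ifh1 knockout cells, 91.3 in fhl1 knockout cells and 93.0 in WT. The 2 subunits shared with RNA polymerase III, rpc40 and rpc19, stood at −0.79 and −0.66. For RNA polymerase III, all 10 of its own subunits were below 0 with a median of −0.30, and 5 of 6 subunits of its initiation factor TFIIIC were above 0 with a median of 0.08. The gene of Maf1, a repressor of RNA polymerase III, stood at 39.2 FPKM in the sfp1 knockout and 33.6 in WT.

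Translation factors were lower, and unevenly between complexes. Of 29 initiation factor genes, 28 were below 0, against 52.4% of all members, with a median of −0.43. At least 2-fold lower were 3 of the 29, against 2.1% of all members. Within eIF2, which carries the initiator tRNA, the gamma subunit tif213 stood at 218.3 FPKM in sfp1 knockout cells, 366.7 in ifh1 knockout cells, 366.1 in fhl1 knockout cells and 463.7 in WT. The alpha subunit tif211 stood at 424.5 FPKM in sfp1 knockout cells, 735.5 in ifh1 knockout cells, 682.3 in fhl1 knockout cells and 864.6 in WT. The beta subunit tif212 was closer to WT, at 734.7 FPKM in the sfp1 knockout and 882.6 in WT. The 5 subunits of eIF2B, the exchange factor of eIF2, had a median of −0.13, while all 11 eIF3 subunits were below 0 with a median of −0.44. All 10 elongation and termination genes were below 0, with a median of −0.58. The 3 genes of EF-1 alpha, which delivers aminoacyl-tRNA, had a median of −0.18, and the 2 EF-2 genes one of −0.64. Quantile normalization reduced these medians relative to all members, to −0.20 in place of −0.41 for initiation and to −0.30 in place of −0.56 for elongation and termination. The eIF5A gene tif512 stood at 4323 FPKM in sfp1 knockout cells, 3595 in ifh1 knockout cells, 4906 in fhl1 knockout cells and 8030 in WT.

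Genes whose products act on elongation factors were not tested as a group. The gene zpr1, which encodes an EF-1 alpha-binding zinc finger protein, stood at 107.0 FPKM in sfp1 knockout cells, 261.1 in ifh1 knockout cells, 259.4 in fhl1 knockout cells and 308.8 in WT. The deoxyhypusine hydroxylase gene mmd1, whose enzyme matures eIF5A, stood at 102.6 FPKM in sfp1 knockout cells, 207.3 in ifh1 knockout cells, 195.0 in fhl1 knockout cells and 256.5 in WT. The gene efm6, annotated as a methyltransferase, whose budding yeast namesake modifies EF-1 alpha, stood at 23.9 FPKM in sfp1 knockout cells, 106.6 in ifh1 knockout cells, 76.4 in fhl1 knockout cells and 71.3 in WT. The sfp1 knockout was the lowest of the 4 genotypes for each of these. The gene dph7, named for the diphthamide modification of EF-2, was also at least 2-fold lower (29.7 FPKM in the sfp1 knockout and 68.1 in WT), and the methyltransferase gene efm4 was nearer WT (−0.82) than tif512. Of 19 cytosolic tRNA synthetase genes, all were below 0 with a median of −0.37, and krs1, the lysine enzyme, stood at 453.3 FPKM in the sfp1 knockout and 983.2 in WT. The 3 chaperones bound at the ribosomal exit tunnel, sks2, zuo1 and ssz1, stood at −0.92, −0.90 and −0.75. The 7 measured subunits of the cytosolic chaperonin CCT had a median of −0.19. After quantile normalization the medians relative to all members were −0.19 in place of −0.35 for tRNA synthetases and −0.16 in place of −0.51 for ribosome-associated chaperones. Among 34 enzymes that modify rRNA and tRNA, 27 were below 0 (median −0.30), with nop2, an rRNA cytosine methyltransferase, at 147.5 FPKM in the sfp1 knockout and 276.2 in WT.

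Genes of nucleotide supply were lower as well. All 26 measured genes of purine, pyrimidine and one-carbon synthesis were below 0, against 52.4% of all members, with a median of −0.55. At least 2-fold lower were 5 of the 26, against 2.1% of all members: ura3, apt1, cts1, gua1 and sam1. Relative to all members the median was −0.54, and −0.33 after quantile normalization. In pyrimidine synthesis (6 genes, median −0.56), the dihydroorotate dehydrogenase gene ura3 (SPAC57A10.12c) stood at 289.9 FPKM in sfp1 knockout cells, 755.7 in ifh1 knockout cells, 650.1 in fhl1 knockout cells and 792.5 in WT. The CTP synthase gene cts1 stood at 201.4 FPKM in sfp1 knockout cells, 523.8 in ifh1 knockout cells, 457.0 in fhl1 knockout cells and 507.4 in WT. In both genes the values of the other 3 genotypes lay close together and the sfp1 knockout stood apart, with bounds apart from WT. The orotidine decarboxylase gene ura4, a common marker in strain building, was at −0.19.

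In purine synthesis, the 7 measured genes up to IMP had a median of −0.47. The IMP dehydrogenase gene gua1, the entry to GTP, stood at 481.4 FPKM in sfp1 knockout cells, 1240.4 in ifh1 knockout cells, 1028 in fhl1 knockout cells and 1135 in WT. Salvage was lower too: apt1, adenine phosphoribosyltransferase, stood at 192.5 FPKM in sfp1 knockout cells, 310.6 in ifh1 knockout cells, 265.9 in fhl1 knockout cells and 513.4 in WT, and the adenine deaminase gene dea2 at 33.1 FPKM in the sfp1 knockout and 75.1 in WT. The gene SPCC285.05, annotated as a purine nucleoside transporter, stood at 45.0 FPKM in sfp1 knockout cells, 121.1 in ifh1 knockout cells, 185.1 in fhl1 knockout cells and 159.4 in WT. The guanine nucleotide carrier gene ggc1 stood at 23.6 FPKM in the sfp1 knockout and 66.4 in WT. The ribose 5-phosphate isomerase gene rki1 was at 184.9 FPKM in the sfp1 knockout and 373.0 in WT.

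The 3 nucleotide genes furthest below WT also hold the RRPE core, shown in capitals on either strand: ura3 at chrI:1387146-1387205 (minus strand), apt1 at chrI:4083580-4083639 (plus) and cts1 at chrI:1213511-1213570 (minus), in ASM294v3.
ura3: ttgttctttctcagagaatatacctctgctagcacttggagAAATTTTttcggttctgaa
apt1: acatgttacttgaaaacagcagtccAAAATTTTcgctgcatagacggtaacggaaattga
cts1: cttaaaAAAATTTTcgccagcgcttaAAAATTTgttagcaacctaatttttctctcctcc
The cts1 window held 3 cores, the apt1 window 2 that overlap and the ura3 window 1.

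**Figure D4:**
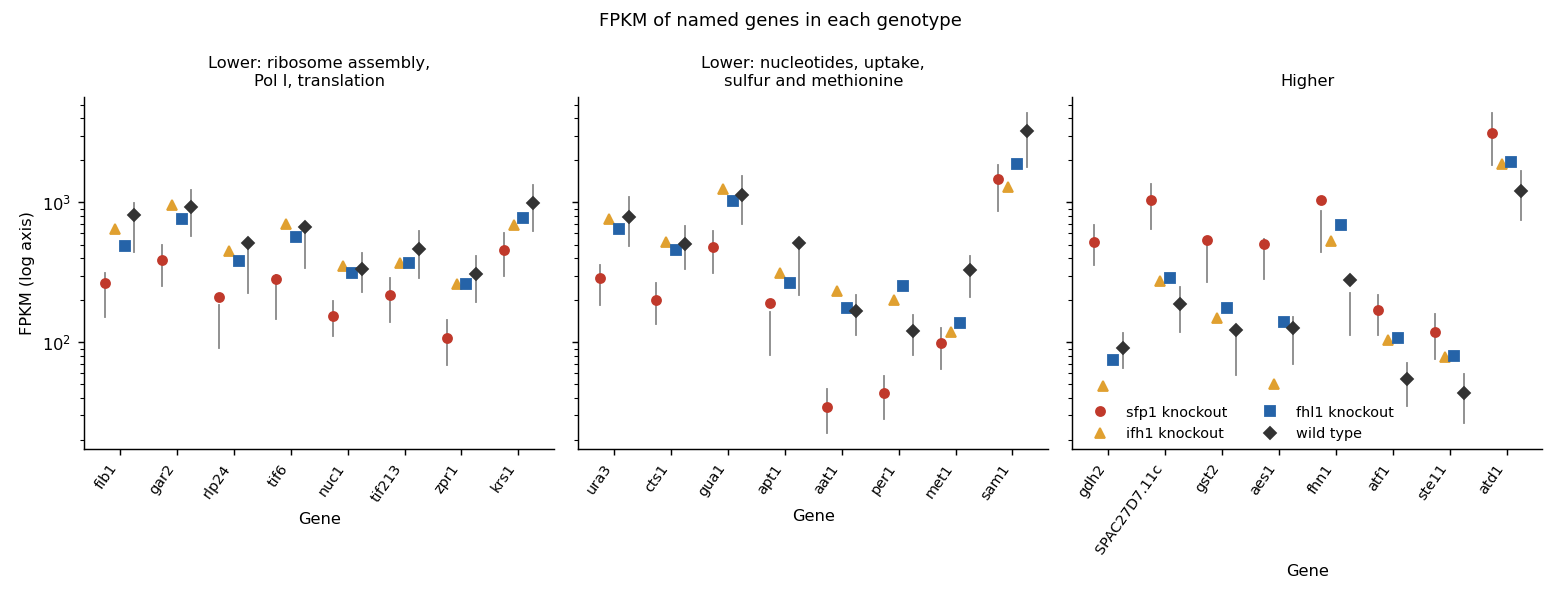
FPKM (log axis) of 24 named genes in the sfp1, ifh1 and fhl1 knockouts and wild type, with grey lines for the deposited lower and upper bounds in the sfp1 knockout and wild type. In the left panel and for ura3, cts1 and gua1 the sfp1 knockout is the lowest point, and in the right panel it is the highest. All 24 genes are past the 2-fold limit, a choice that favours an extreme place for the sfp1 knockout. The other 3 genotypes lie near each other for ura3, cts1 and gua1 and are more spread for fib1 and krs1.

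Uptake and nitrogen genes differed in both directions. The amino acid permease gene aat1 (SPBC359.03c, chromosome II 111309 to 113048) was the furthest below WT of all members, at 34.6 FPKM in sfp1 knockout cells, 233.2 in ifh1 knockout cells, 174.7 in fhl1 knockout cells and 167.9 in WT (−2.25). Another permease gene, per1, stood at 43.3 FPKM in sfp1 knockout cells, 200.8 in ifh1 knockout cells, 251.4 in fhl1 knockout cells and 120.8 in WT, and SPAC1039.01 at 13.3 FPKM in sfp1 knockout cells, 68.2 in ifh1 knockout cells, 84.6 in fhl1 knockout cells and 31.4 in WT. In per1 and SPAC1039.01 the sfp1 knockout was thus below WT and the other knockouts above it. The glutathione transporter gene pgt1 was at least 2-fold lower (93.1 FPKM in the sfp1 knockout and 205.9 in WT). In the uptake list as a whole, 9 of 14 were below 0, with a median of −0.28, and agp3 stood highest at 0.74. Of 176 members annotated as transporters or permeases, 15 were at least 2-fold lower (8.52%, against 2.1% of all members) and 7 at least 2-fold higher (3.98%, against 1.49%).

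In ammonium, glutamate and nitrogen use, 9 of 11 genes were below 0 (median −0.32, or −0.30 relative to all members and −0.18 after quantile normalization). The NADP-dependent glutamate dehydrogenase gene gdh1, which fixes ammonium, stood at 737.9 FPKM in sfp1 knockout cells, 505.2 in ifh1 knockout cells, 831.2 in fhl1 knockout cells and 1461 in WT. Glutamine synthetase, gln1, stood at 596.1 FPKM in the sfp1 knockout and 1146 in WT. The NAD-dependent enzyme gdh2 (SPCC132.04c, chromosome III 1332764 to 1336084), which works in the direction of glutamate breakdown, went the other way, at 524.5 FPKM in sfp1 knockout cells, 48.4 in ifh1 knockout cells, 74.5 in fhl1 knockout cells and 90.9 in WT. The 48 amino acid synthesis genes had a median of −0.07 and none past the 2-fold limit, and after quantile normalization they stood at 0.095 relative to all members. Among the 10 largest gains in FPKM were lys4, homocitrate synthase of the lysine pathway (1753 FPKM in the sfp1 knockout and 1127 in WT), and eca39, a branched-chain aminotransferase (1599 FPKM in the sfp1 knockout and 1086 in WT).

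In sulfur, cysteine and methionine metabolism, 15 of 20 genes were below 0 (median −0.37). The gene met1, whose uroporphyrin methyltransferase serves siroheme synthesis, stood at 99.6 FPKM in sfp1 knockout cells, 117.8 in ifh1 knockout cells, 136.4 in fhl1 knockout cells and 328.8 in WT. The homoserine O-acetyltransferase gene cys2 stood at 177.2 FPKM in sfp1 knockout cells, 169.0 in ifh1 knockout cells, 212.7 in fhl1 knockout cells and 442.8 in WT. In met1 and cys2 all 3 knockouts were below WT, as they were for sam1, the S-adenosylmethionine synthetase gene, at 1467 FPKM in sfp1 knockout cells, 1288 in ifh1 knockout cells, 1897 in fhl1 knockout cells and 3218 in WT. The spermidine synthase gene srm1 and 2 methionine salvage genes, mri1 and adi1, were at least 2-fold lower as well (−1.01, −1.09 and −1.13). Among iron genes (14 genes, median −0.10), the siderophore transporter gene str3 stood at 3.35 FPKM in sfp1 knockout cells, 22.6 in ifh1 knockout cells, 6.14 in fhl1 knockout cells and 16.1 in WT.

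Highly expressed metabolic genes held some of the largest losses in absolute level. Of 16 glycolysis and fermentation genes, 13 were below 0, with a median of −0.50. Relative to all members that median was −0.48, and −0.019 after quantile normalization, so the difference depended on the scaling. Pyruvate kinase, pyk1, stood at 5766 FPKM in sfp1 knockout cells, 4817 in ifh1 knockout cells, 5299.5 in fhl1 knockout cells and 10591 in WT. The aldolase gene fba1 stood at 12409 FPKM in sfp1 knockout cells, 9896 in ifh1 knockout cells, 12763 in fhl1 knockout cells and 20434 in WT. The thiamine synthesis gene thi2 stood at 8170 FPKM in the sfp1 knockout and 14274 in WT. The glycolysis list had 1 gene at least 2-fold higher, pdc201, annotated as a pyruvate decarboxylase, at 69.5 FPKM in the sfp1 knockout and 28.2 in WT. Over all members the difference moved with level: in 5 equal classes of mean FPKM, low to high, the medians were 0.18, 0.05, −0.01, −0.10 and −0.26, and the last was −0.19 without ribosomal protein genes. The part of level in the results on gene groups was not tested. The median difference showed no such order with gene length, at −0.08 for 300 to 500 bp and −0.01 from 2000 bp on. Genes past the 2-fold limit were rarer among long genes. The share at least 2-fold higher fell from 3.42% at 300 to 500 bp to 0.44% from 2000 bp on. At least 2-fold lower were 2.35% of genes at 300 to 500 bp, 2.55% at 1000 to 2000 bp and 0.78% from 2000 bp on.

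On the higher side, the core stress response list stood furthest from all members. Of 39 genes in the table, 29 passed the limits on level and length, and 23 of these were above 0, against 47.6% of all members, with a median of 0.57, and gst2, atf1, sro1 and plr1 were at least 2-fold higher, gst2 and atf1 with bounds apart. The gene of Atf1, the transcription factor that acts downstream of the Sty1 stress kinase, atf1 (SPBC29B5.01), stood at 168.9 FPKM in sfp1 knockout cells, 103.8 in ifh1 knockout cells, 106.8 in fhl1 knockout cells and 54.2 in WT. The glutathione S-transferase gene gst2 stood at 536.6 FPKM in sfp1 knockout cells, 149.2 in ifh1 knockout cells, 174.8 in fhl1 knockout cells and 122.6 in WT. Catalase (ctt1) stood at 78.3 FPKM in sfp1 knockout cells, 79.2 in ifh1 knockout cells, 91.0 in fhl1 knockout cells and 39.9 in WT. For atf1 and ctt1 all 3 knockouts were above WT, and for gst2 the sfp1 knockout stood well above the other 3. The quinone oxidoreductase gene obr1 stood at 2115 FPKM in the sfp1 knockout and 1160.2 in WT, and the pyridoxal reductase gene plr1 at 700.0 FPKM in the sfp1 knockout and 338.1 in WT. Genes of this list below 0 included wis1, the kinase that activates Sty1, at 89.6 FPKM in the sfp1 knockout and 169.8 in WT, and pcr1, the partner of Atf1, at 64.8 FPKM in the sfp1 knockout and 75.7 in WT. The sty1 gene itself was listed at 0 in every genotype. Such a row of zeros was given to 194 gene models of 300 bp or more. Whether it reflects absent transcript or the processing was not tested.

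The CRE core (TGACGT), a site bound by Atf1 with Pcr1, was in 11 of the 64 promoters of genes at least 2-fold higher (17.2%), in 6 of 29 core stress promoters (20.7%) and in 5.65% of all. The 3 windows printed here come from higher genes of known product that hold it: sut1, a sucrose and maltose transporter gene, at chrI:3935243-3935302 (plus strand), atf1 at chrII:1546140-1546199 (plus) and the aldo-keto reductase gene SPAC977.14c at chrI:60856-60915 (minus), in ASM294v3 with cores in capitals.
sut1: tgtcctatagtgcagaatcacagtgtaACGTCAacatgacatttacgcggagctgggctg
atf1: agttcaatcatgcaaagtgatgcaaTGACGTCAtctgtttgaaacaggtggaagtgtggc
SPAC977.14c: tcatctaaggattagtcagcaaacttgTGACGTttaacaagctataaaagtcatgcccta
The atf1 window held a full palindrome made of 2 overlapping cores, 50 bases before the gene start, and the other 2 windows held 1 core each. The sut1 gene stood at 21.0 FPKM in sfp1 knockout cells, 10.5 in ifh1 knockout cells, 13.5 in fhl1 knockout cells and 5.43 in WT, and SPAC977.14c at 242.0 FPKM in sfp1 knockout cells, 115.9 in ifh1 knockout cells, 117.8 in fhl1 knockout cells and 80.5 in WT. In both the order of the genotypes was the same, with the sfp1 knockout highest and WT lowest. With a mean of 12.6 FPKM, sut1 passed the limit of 10 FPKM for members only through its sfp1 knockout value. It is counted in the 11 and the 64 all the same. The short stress element CCCCT, known from budding yeast, was in 20.3% of higher, 17.8% of lower and 10.3% of all promoters, so it did not separate the directions.

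Several of the largest differences above WT were in genes outside the lists. The gene SPBPB2B2.06c, annotated as a phosphoprotein phosphatase (chromosome II 4469200 to 4471005), stood at 299.2 FPKM in sfp1 knockout cells, 139.2 in ifh1 knockout cells, 51.7 in fhl1 knockout cells and 45.3 in WT (2.70). The But2 family gene SPAC27D7.11c stood at 1037 FPKM in sfp1 knockout cells, 273.6 in ifh1 knockout cells, 286.5 in fhl1 knockout cells and 186.6 in WT. The eisosome gene fhn1, whose product helps to build furrows of the plasma membrane, stood at 1048 FPKM in sfp1 knockout cells, 527.2 in ifh1 knockout cells, 688.4 in fhl1 knockout cells and 278.8 in WT. In each the sfp1 knockout had the highest value and WT the lowest, with bounds apart. The gene aes1 stood at 505.4 FPKM in sfp1 knockout cells, 50.3 in ifh1 knockout cells, 139.0 in fhl1 knockout cells and 127.6 in WT. The short gene rtc3 (321 bp, SBDS family) was above WT in each knockout and highest in that of fhl1, at 144.8 FPKM in sfp1 knockout cells, 77.1 in ifh1 knockout cells, 162.8 in fhl1 knockout cells and 22.5 in WT. Its values lay above their own upper bounds, 69.5 FPKM in the sfp1 knockout and 15.5 in WT.

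Redox enzymes were counted by annotated product. A product name with the word aldo-keto, reductase, dehydrogenase or oxidoreductase was given to 152 members. Of these, 9 passed the 2-fold limit upward (5.92%, against 1.49% of all members) and 4 downward (2.63%, near the 2.1% of all members). The aldehyde dehydrogenase gene atd1 (SPAC9E9.09c) had the largest gain in FPKM, at 3136 FPKM in sfp1 knockout cells, 1879 in ifh1 knockout cells, 1932 in fhl1 knockout cells and 1212 in WT. The glyoxylate reductase gene gor1 stood at 1052 FPKM in sfp1 knockout cells, 351.8 in ifh1 knockout cells, 524.0 in fhl1 knockout cells and 414.5 in WT. On chromosome I, atd1 was the only gene at least 2-fold higher among 15 members within 20 kb of sfp1, whose median was 0.12. The members nearest to sfp1, dus3 on one side and leu2 on the other, stood at −0.47 and 0.30. Trehalose genes, which make and break down a stress protectant, were all above 0 (4 genes, median 0.69), with tps3 at 271.8 FPKM in sfp1 knockout cells, 112.8 in ifh1 knockout cells, 230.2 in fhl1 knockout cells and 132.9 in WT.

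Genes of starvation programmes were higher by smaller amounts. Of 28 autophagy genes measured, of 33 in the table, 24 were above 0, against 47.6% of all members, with a median of 0.28. The beclin gene atg6 stood at 18.8 FPKM in sfp1 knockout cells, 15.0 in ifh1 knockout cells, 13.5 in fhl1 knockout cells and 8.41 in WT, and atg5, part of the Atg8 conjugation machinery, at 66.2 FPKM in sfp1 knockout cells, 53.1 in ifh1 knockout cells, 46.1 in fhl1 knockout cells and 35.9 in WT. The kinase gene atg1 stood at 38.5 FPKM in the sfp1 knockout and 37.4 in WT. The sfp1 knockout had the highest of the 4 values in 16 of the 28 (57.1%), against 29.4% of all members. The median WT level of these genes was 32.8 FPKM. Members in the lowest of the 5 classes of mean FPKM had a median difference of 0.18, and the part of level was not tested. Of 32 genes of sexual development and pheromone signalling measured, of 43 in the table, 26 were above 0 (median 0.27), against 47.6% of all members. The regulator gene ste11, which turns on the mating programme on nitrogen starvation, stood at 118.2 FPKM in sfp1 knockout cells, 78.0 in ifh1 knockout cells, 79.8 in fhl1 knockout cells and 43.1 in WT. The meiosis gene mei2, a target of Ste11, stood at 23.4 FPKM in sfp1 knockout cells, 47.5 in ifh1 knockout cells, 40.3 in fhl1 knockout cells and 8.32 in WT. For both, all 3 knockouts were above WT, with the sfp1 knockout highest for ste11 and lowest of the knockouts for mei2.

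**Figure D5:**
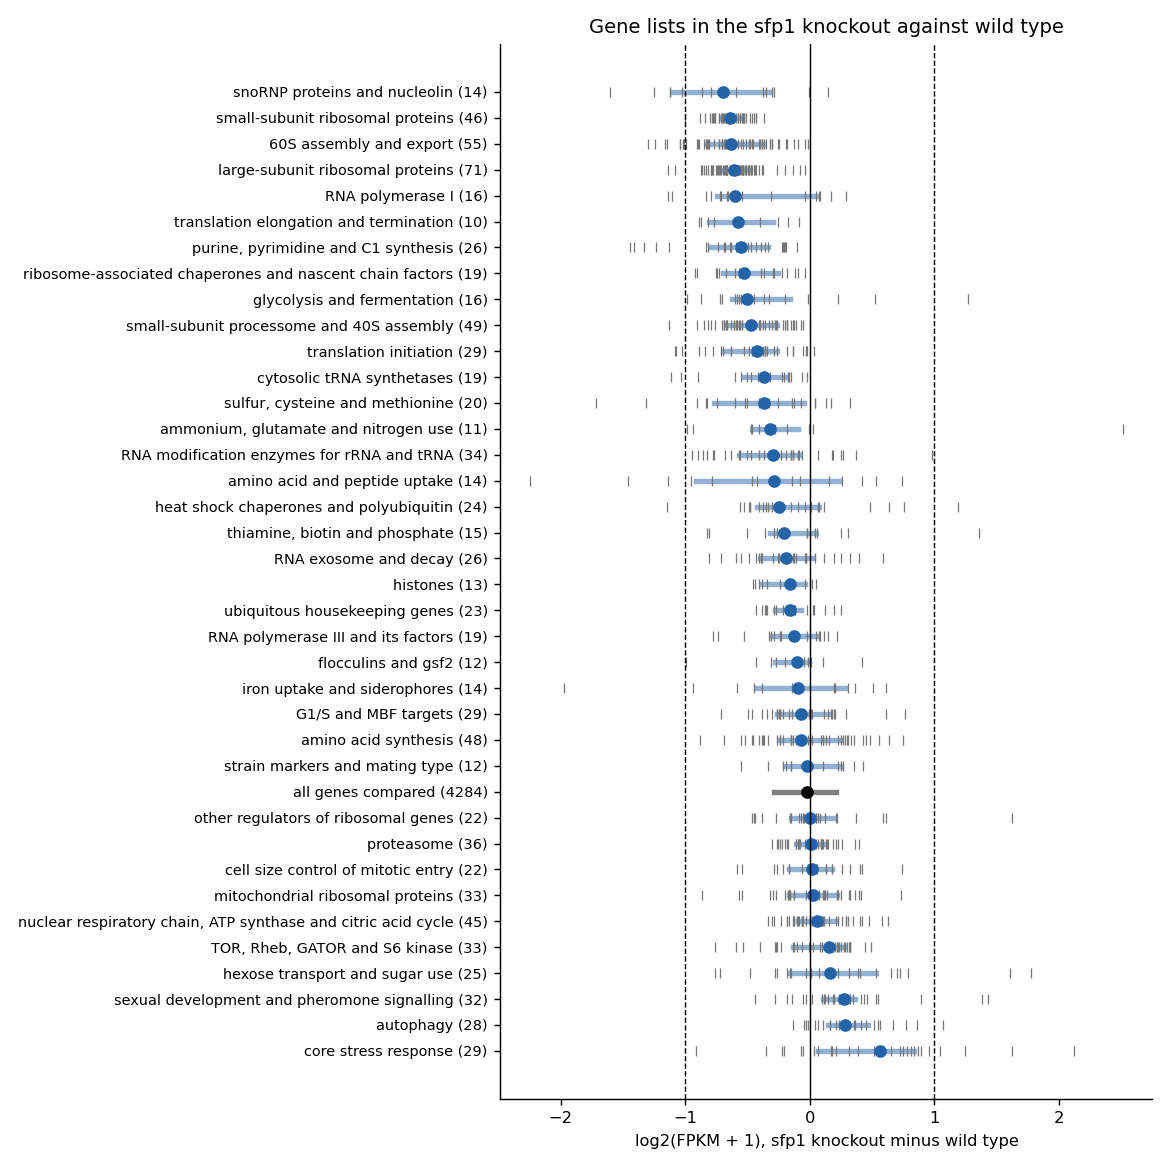
Median (point), quartiles (bar) and members (ticks) of each gene list on the log2(FPKM + 1) difference, sfp1 knockout minus wild type, with list sizes in brackets and the 2-fold limits dashed. Lists of ribosome production, translation and nucleotide supply have medians from −0.69 to −0.37, apart from RNA modification enzymes at −0.30 and RNA polymerase III at −0.13, while the core stress response stands at 0.57.

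Sugar genes split: of 25 genes of hexose transport and sugar use, 16 were above 0 (median 0.17). Besides sut1, the galactose gene gal7 stood at 31.2 FPKM in sfp1 knockout cells, 15.4 in ifh1 knockout cells, 15.0 in fhl1 knockout cells and 9.53 in WT. It lies in a block near the right end of chromosome II. Within 100 kb of the ends of that chromosome, 6 of 14 members were at least 2-fold higher and 1 was lower, against 27 and 38 of 1569 on the whole chromosome. The 6 were gal7, SPBPB2B2.06c, SPBPB2B2.05, the permease gene nrg1, aes1 and the acid phosphatase gene pho1. The nrg1 gene was low, at 19.0 FPKM in sfp1 knockout cells, 11.0 in ifh1 knockout cells, 12.6 in fhl1 knockout cells and 3.56 in WT. With a mean of 11.5 FPKM, nrg1 passed the limit for members only through the high sfp1 knockout value, and it is counted in the 6 all the same. Near the ends of chromosome I, 1 of 15 members was at least 2-fold higher and 2 were lower, and near those of chromosome III 1 of 68 each way. Secreted acid phosphatase, pho1, stood at 1219 FPKM in sfp1 knockout cells, 789.4 in ifh1 knockout cells, 378.9 in fhl1 knockout cells and 474.0 in WT, with the fhl1 knockout lowest. Among genes past the limit, 4 pairs of lower genes and 2 pairs of higher genes were within 5 kb of each other. They included mpf2 with ggc1 on chromosome III (466 bases apart) and cdd1 with cgr1 on chromosome I (309 bases apart). Such pairs were not counted over all members, so these counts show neither clustering nor its absence.

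Other lists stayed near the centre. Proteasome (36 genes, median 0.01), nuclear respiratory chain and citric acid cycle (45 genes, 0.06), mitochondrial ribosomal protein (33 genes, 0.03), cell size control (22 genes, 0.02) and G1/S (29 genes, −0.07) lists had no member past the 2-fold limit. Of 33 TOR pathway genes, 20 were above 0 (median 0.15, or 0.17 relative to all members and 0.10 after quantile normalization). The TORC1 kinase gene tor2 stood at 97.5 FPKM in the sfp1 knockout and 101.6 in WT. The 3 genes of GATOR1, which restrains TORC1, had a median of 0.32, and the S6 kinase gene psk1 stood at −0.59. Among other regulators of ribosomal genes (22 genes, median 0.00), the TATA-binding protein gene tbp1 stood at 247.5 FPKM in sfp1 knockout cells, 235.7 in ifh1 knockout cells, 214.3 in fhl1 knockout cells and 161.7 in WT, and gcn2, the eIF2 kinase, at 77.9 FPKM in the sfp1 knockout and 51.4 in WT. The 6 MCM helicase genes were all below 0 with a median of −0.32. Heat shock genes (24 genes, median −0.24, or −0.021 relative to all members after quantile normalization) included one gene past the limit each way: mas5, a DnaJ chaperone, at 351.2 FPKM in the sfp1 knockout and 777.5 in WT, and the polyubiquitin gene ubi4 at 178.8 FPKM in sfp1 knockout cells, 268.0 in ifh1 knockout cells, 227.9 in fhl1 knockout cells and 77.8 in WT.

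Genes past the limit were also described by structure and level. An intron in the coding sequence was annotated in 24 of the 90 lower genes (26.7%) and 16 of the 64 higher genes (25.0%), against 46.6% of all members, 45.3% of ribosomal protein genes and 55.1% of assembly factors. Lower genes had a median of 96.8 FPKM in the sfp1 knockout and 217.2 in WT, and higher genes 77.2 FPKM in the sfp1 knockout and 28.5 in WT, where all members had 73.5 FPKM in the sfp1 knockout and 74.7 in WT. The genes next to the level limit were SPCPB16A4.06c and SPBC887.02, with means of 10.1 and 10.2 FPKM, inside it, and taf51 and SPCC4G3.03, with means of 9.98 and 9.92 FPKM, outside it. At the length limit, rpl3602 and SPCC569.09 (300 bp) were inside, and mrpl33 and urm1 (294 bp) outside.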

How the data were processed

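The authors deposited 1 table of FPKM values per gene model, with a lower and upper bound beside each, from 1 directional RNA library label per genotype. Cufflinks 2.1.1 and TopHat2 2.0.9 are named, without a role, per the submitters' processing notes. The build, the annotation, the use of strand, the sharing of reads between near-identical genes and the combining of the 2 replicates in the table's name are steps not given in any source used here.

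Values were compared as log2(FPKM + 1), sfp1 knockout minus wild type, with Python 3.11.15, pandas 2.3.3 and NumPy 2.4.6, and the calculation was tested on simulated data. Names came by gene ID from the RefSeq annotation of ASM294v3, which held 5111 of 5129 models, and promoters from its genome. Coordinates of genes are those of the deposited table, and gene lists were matched by name.

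With 1 column per genotype no test was made. The members and lists were chosen with earlier results of these data known, and lists were trimmed by annotated product after values were seen. Genes named by rule were the 15 largest differences each way, the 15 largest each way with bounds apart, the 10 largest gains and losses in FPKM, 4 per list, the listed regulators and those at the limits. Other genes were chosen after their values were seen: SPAC1039.01, SPAC977.14c, adi1, agp3, atg1, byr3, cdd1, cgr1, ctt1, dea2, dph7, dus3, hit1, las1, leu2, llp1, mmd1, mri1, nop52, nop58, pcr1, pdc201, ppp1, psk1, rki1, rpc19, rpl3001, rpl3002, rpa43, rrn3, rrn5, sam1, snu13, spp27, srm1, sty1, tif212, tor2, tps3, ubi4, utp23 and wis1. Alternatives covered the pseudocount, the limits on level and length, 3 other scalings, the midpoint of the bounds and the fold.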

Additional observations from a re-analysis of the deposited data

How the results depend on the processing

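With 1 column per genotype, sampling and culture error cannot be separated from genotype, depth is unknown, and no replicate could be left out. No paired analysis was possible because each genotype has 1 column. Genes at least 2-fold higher numbered 64 as reported, and 38 with a pseudocount of 10, 113 with no minimum of mean FPKM, 32 with a mean of at least 50, 97 with any length, 29 with a length of at least 1000 bp, 133 when each genotype was scaled to its sum without ribosomal proteins, 271 at 1.5-fold and 40 with bounds apart. Genes at least 2-fold lower numbered 90 as reported, and 51 with a length of at least 1000 bp, 29 with that scaling and 413 at 1.5-fold. Under that scaling the median of all members was 0.23.

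List medians relative to all members were within 0.1 of the reported ones in 356 of 388 values. With quantile normalization they were −0.15 for ribosomal proteins (large subunit −0.14, small subunit −0.15), −0.49 for snoRNP proteins, −0.44 for RNA polymerase I, −0.20 for initiation, −0.30 for elongation, −0.19 for tRNA synthetases, −0.16 for ribosome-associated chaperones, −0.33 for nucleotide synthesis, 0.095 for amino acid synthesis, −0.18 for nitrogen use, −0.055 for thiamine, biotin and phosphate, −0.019 for glycolysis, −0.021 for heat shock, 0.14 for the proteasome, 0.21 for respiration and 0.16 for strain markers. Quantile normalization turned the sign for histones (0.0077) and housekeeping genes (0.0021). With a length of at least 1000 bp the values were −0.35 for snoRNP proteins, −0.46 for elongation, −0.31 for chaperones, −0.083 for the proteasome, −0.059 for the exosome and 0.25 for strain markers, and the sign turned for RNA polymerase III (0.047) and histones (0.020). With a mean of at least 50 they were 0.078 for hexose and sugar genes and 0.14 for other regulators, with no minimum 0.12 for strain markers, and with a pseudocount of 10 0.45 for core stress. Ribosomal proteins of any length made up 67.9% of summed FPKM in sfp1 knockout cells, 69.9% in ifh1 knockout cells, 66.7% in fhl1 knockout cells and 68.4% in WT, so the order of genotypes seen at 300 bp or more was not kept. From midpoints of the bounds the shares were 24.9% in sfp1 knockout cells, 21.4% in ifh1 knockout cells, 24.4% in fhl1 knockout cells and 29.8% in WT. The causes of these shifts were not tested, other than that fewer or more genes enter when a limit is moved.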
